A study of Mus musculus with 48 samples.

Results

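The 4 Hox clusters of the mouse were described by the acetylation of histone H3 at lysine 27 (H3K27ac), a chromatin mark of active promoters and enhancers. The members were the H3K27ac peaks that overlapped, by 1 base or more, a window of the mm9 genome build around each cluster. The windows were 140 kb for HoxA (chromosome 6, 52.09 to 52.23 Mb), 190 kb for HoxB (chromosome 11, 96.05 to 96.24 Mb), 130 kb for HoxC (chromosome 15, 102.75 to 102.88 Mb) and 130 kb for HoxD (chromosome 2, 74.49 to 74.62 Mb). They were set around 38 listed Hox genes, 10 each in HoxA and HoxB and 9 each in HoxC and HoxD. Of 620207 peaks in 24 H3K27ac lists, 75 were in the windows: 27 in HoxA, 42 in HoxB, 5 in HoxC and 1 in HoxD.

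Hox genes encode homeodomain transcription factors that give cells their position along the head-to-tail axis of the embryo. Within a cluster they lie in the order in which they act: low-numbered genes such as Hoxb1, which patterns the hindbrain, act early and towards the head, and high-numbered genes such as Hoxd13, which shapes digits and genitalia, act late and towards the tail. Hox expression is known from the hindbrain backwards and not from the forebrain, and several members, among them Hoxb4 and Hoxa9, also act in blood stem cells, which populate the liver before birth. In cells where a cluster is silent, Polycomb complexes can place trimethylation on the same lysine that carries acetylation in active chromatin.

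Forebrain, heart and liver were taken from CD-1 mice, an outbred strain, before birth (E11.5, E14.5, E17.5, in embryonic days) and after it (P0, P7, P21, P56, in postnatal days); no genotype or treatment differed between groups. Except at P56, each sample was a pool of several animals. With an input library of sonicated DNA beside each H3K27ac library there were 48 libraries. Heart E11.5 and, in forebrain, E11.5 and P56 had 2 replicates, and every other tissue and stage had 1. No label ties a replicate to animals of its own. In the main tests the units are stages, with 1 library per tissue and stage. The p-values therefore speak for the spread of these libraries over stages, not between animals or replicates.

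Every cluster also holds microRNA genes. Their mature sequences are shown because they tie the 4 windows together: the miR-10 pair lies beside the group 4 genes of HoxB and HoxD, and the miR-196 family lies between high-numbered genes of HoxA, HoxB and HoxC. Sequences are those of RefSeq, and capitals mark the seed, bases 2 to 8, which pairs with target messenger RNAs.
mmu-miR-10a-5p: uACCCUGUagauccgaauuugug
mmu-miR-10b-5p: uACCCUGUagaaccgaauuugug
mmu-miR-196a-5p: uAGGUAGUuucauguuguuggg
mmu-miR-196b-5p: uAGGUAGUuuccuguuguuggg
Counted from the 5′ end, miR-10a and miR-10b differ by U12A, and miR-196a and miR-196b differ by A12C, so that each pair shares its seed. In the RefSeq order of genes, Mir10a (HoxB) lies inside Hoxb3 with Hoxb5 and Hoxb4 as its neighbours, and Mir10b (HoxD) lies inside the overlapping Hoxd3 and Hoxd4. The 2 copies of miR-196a, Mir196a-1 and Mir196a-2, lie between Hoxb13 and Hoxb9 and between Hoxc10 and Hoxc9, and Mir196b lies between Hoxa9 and Hoxa10. In mice miR-196 is known to direct cleavage of the Hoxb8 message.

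A RefSeq promoter was found for 22 of the 38 genes, and some genes had more than 1, which makes 24 promoters. Group 4 was the one paralogue group with promoters from 3 clusters in that table, and the windows of those clusters differed widely in marking, so the 200 bases before each start are printed with every CG dinucleotide in capitals. CG-rich promoters are known for being free of DNA methylation and open to histone marks of both activity and repression.
Hoxb4: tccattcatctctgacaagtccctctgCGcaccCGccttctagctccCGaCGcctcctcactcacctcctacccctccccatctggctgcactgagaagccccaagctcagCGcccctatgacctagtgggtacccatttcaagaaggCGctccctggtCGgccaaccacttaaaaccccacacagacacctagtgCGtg
Hoxc4: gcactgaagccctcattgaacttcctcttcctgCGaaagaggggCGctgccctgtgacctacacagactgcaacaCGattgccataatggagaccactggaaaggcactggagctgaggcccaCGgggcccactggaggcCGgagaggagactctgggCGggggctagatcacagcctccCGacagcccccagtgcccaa
Hoxd4: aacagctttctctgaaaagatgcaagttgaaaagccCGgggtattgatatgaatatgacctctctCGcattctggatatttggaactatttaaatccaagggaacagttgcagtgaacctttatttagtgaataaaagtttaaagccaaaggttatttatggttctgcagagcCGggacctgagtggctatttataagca
All 3 are on the plus strand of the GRCm38.p6 build, at chr11:96318067-96318266 for Hoxb4, chr15:103034195-103034394 for Hoxc4 and chr2:74721778-74721977 for Hoxd4. These positions cannot be set against the mm9 positions of the peaks, so whether a peak covered one of these promoters is not known. The stretches held 8 CG dinucleotides for Hoxb4, 7 for Hoxc4 and 3 for Hoxd4. Over the whole RefSeq stretch, 250 bases before to 50 after the start, the median number of CG per 100 bases was 4.83 in the 24 Hox promoters and 2.33 in all 32851 promoters. By cluster it was 5.83 for HoxA (10 promoters), 4.33 for HoxB (3), 3 for HoxC (1) and 6.67 for HoxD (10). HoxD, with the highest median, held 1 of the 75 peaks. The motif TGATNNAT, which Hox proteins are known to bind together with Pbx partners, was read on both strands and was present in 4 of the 24 promoters, those of Hoxa2, Hoxb1, Hoxb8 and Hoxd11 (16.7%), and in 8.85% of all promoters.

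Lists held 7376 to 39133 peaks and libraries 4108135 to 33394166 uniquely mapped reads. The shortest list, heart P21, had no Hox peak, and the shortest liver list, E14.5 with 12474 peaks, had none either. The input list of heart P21 went against its label: it held 23762 peaks, where the median input list held 28 and the next longest 865. Of its peaks, 92% overlapped the liver P7 H3K27ac list and 69.4% the heart P7 list, while the heart P21 H3K27ac list overlapped heart P7 with 88.9% of its peaks and liver P7 with 34.8%. For comparison, 86.6% of the liver P21 H3K27ac peaks overlapped liver P7. Differences are therefore also given without stage P21. Library names in the file headers fell into a series beginning IO and one beginning LPAN: 8 of 9 forebrain, 3 of 8 heart and 0 of 7 liver H3K27ac libraries were of the first. In the 21 lists of the main tests, name series and tissue cannot be told apart between forebrain and liver. The 1 forebrain library of the LPAN series, P56 replicate 2, was not among them. Tissue labels were not checked against marker genes, because mm9 gene positions were not used here.

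**Figure D1:**
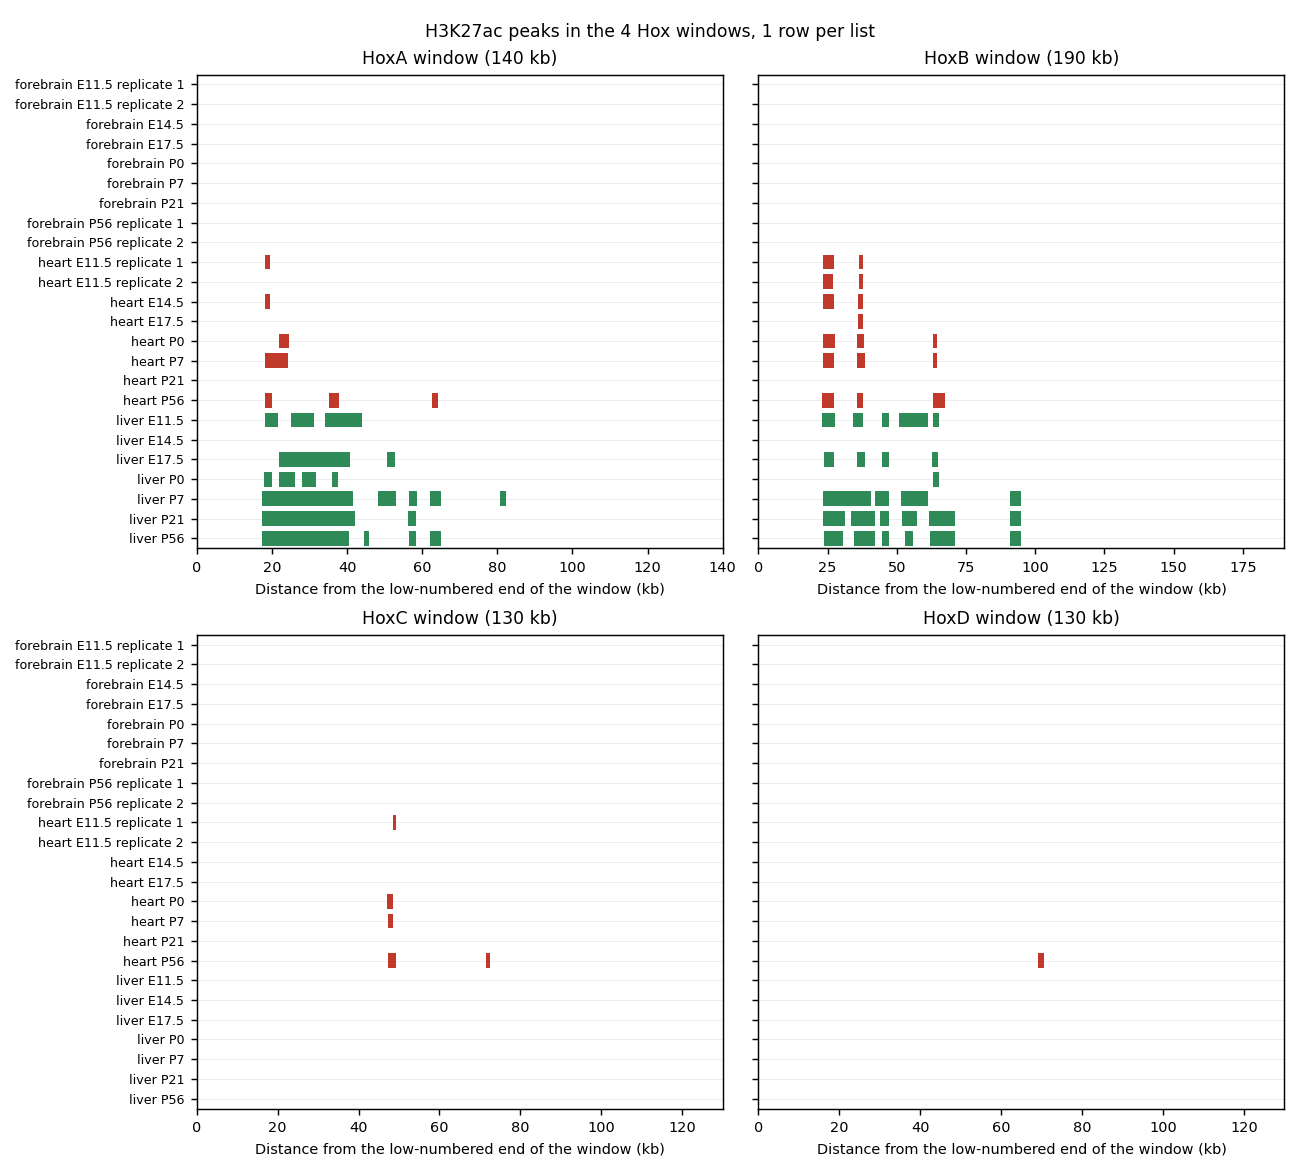
H3K27ac peaks (bars) in the windows of the 4 Hox clusters, with 1 row for each of the 24 lists (blue forebrain, red heart, green liver) and the distance in kb from the window's low-numbered end on the x axis. Forebrain rows are empty in every window, heart and liver peaks in HoxA and HoxB lie towards the low-numbered end, and HoxC and HoxD hold 5 peaks and 1 peak, all of heart.

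No forebrain list had a peak in any Hox window. The 9 forebrain lists held 216644 peaks, and 0 of them were in the 4 windows. In the heart 29 of 233702 peaks (8 lists) and in the liver 46 of 169861 (7 lists) were there. Forebrain lists did mark the neighbourhood: in stretches of the window's own length on either side, all 9 forebrain lists had a peak beside HoxA, all 9 beside HoxB, 8 beside HoxC and all 9 beside HoxD. A peak on 1 side was enough. Beyond the high-numbered end of HoxA, with 1 list per stage, 3 of 7 forebrain, 1 of 7 heart and 0 of 7 liver lists had a peak. Forebrain libraries held 17135627 or more uniquely mapped reads, and liver P0, with 4108135 reads, had 5 Hox peaks. Forebrain lists held 11871 to 36771 peaks, and liver lists 12474 to 35535. What part depth and list length have in the empty forebrain windows was not tested. The single forebrain library of the LPAN series, P56 replicate 2, also had 0 Hox peaks among 25709. Liver P56, of the same series, had 10 among 30611.

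All 94 of the 1 kb bins in the windows that carried a peak in at least 1 of 7 liver lists were free of peaks in the 7 forebrain lists compared with them. Over the whole genome this held for 61.9% of such liver bins. All 36 Hox bins marked in heart were free of forebrain peaks, against 56.8% of heart bins genome-wide. Neighbouring bins often belong to 1 peak, so these shares are descriptions. Whole windows without forebrain peaks were less usual. Of 6439 genome tiles as long as the HoxA window and marked in 6 or more of 7 liver lists, as HoxA was, 1.77% had no peak in any of the 9 forebrain lists. For tiles of the HoxB length the share was 1.2% with 6 or more liver lists marked and 1.86% with 6 or more heart lists. The corresponding heart shares were 3.68% for HoxA (5 or more lists), 5.22% for HoxC (4 or more lists) and 9.84% for HoxD (1 or more lists).

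HoxA, the cluster that runs from Hoxa2 to Hoxa13 among the listed genes, had the highest mean share of its window marked in the liver, though HoxB was higher at P21 and wider in bases over all liver lists together (48340 against 39145 bp). The share of its window covered by liver peaks, the marked percent, was 13.8% at E11.5, 0% at E14.5, 15% at E17.5, 8.5% at P0, 25.2% at P7, 19.1% at P21 and 20.7% at P56. In the heart it was 0.868% at E11.5, 0.898% at E14.5, 0% at E17.5, 1.81% at P0, 4.49% at P7, 0% at P21 and 4.5% at P56. The liver values lay above those of the heart at 6 of 7 stages, E14.5 being the exception. The ranges overlapped through that empty liver list, and every liver list that had a peak was above every heart list. The second heart E11.5 replicate had no HoxA peak, and its first had 1 of 1215 bp.

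HoxB, which runs from the hindbrain gene Hoxb1 to Hoxb13, held the most peaks. Liver peaks covered 12.5% of its window at E11.5, 0% at E14.5, 6% at E17.5, 1.13% at P0, 19% at P7, 20.5% at P21 and 17.3% at P56. Heart peaks covered 2.92% at E11.5 (2.58% in replicate 2), 3.02% at E14.5, 0.932% at E17.5, 4.53% at P0, 4.4% at P7, 0% at P21 and 5.84% at P56. The ranges of heart and liver overlapped: at E14.5 and P0 the heart list marked more of HoxB than the liver list did. The 2 heart E11.5 replicates marked nearly the same 2 short HoxB stretches, measured from the low-numbered end. Replicate 1 had peaks at 23.2 to 27.4 kb and 36.2 to 37.6 kb. Replicate 2 had them at 23.3 to 26.9 kb and 36.2 to 37.6 kb.

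In HoxC, which starts at Hoxc4 and includes the thoracic patterning genes Hoxc8 and Hoxc9, no liver list had a peak. Heart peaks covered 0.69% of it at E11.5, 1.29% at P0, 1.07% at P7 and 2.35% at P56, and 0% at E14.5, E17.5 and P21. The second heart E11.5 replicate had none. In HoxD, the cluster of the limb genes Hoxd9 to Hoxd13, 1 peak was found over all 24 lists, at heart P56, where it covered 1.08% of the window. Liver lists had peaks beside these windows all the same, in 6 of 7 lists beside HoxC and 7 of 7 beside HoxD.

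**Figure D2:**
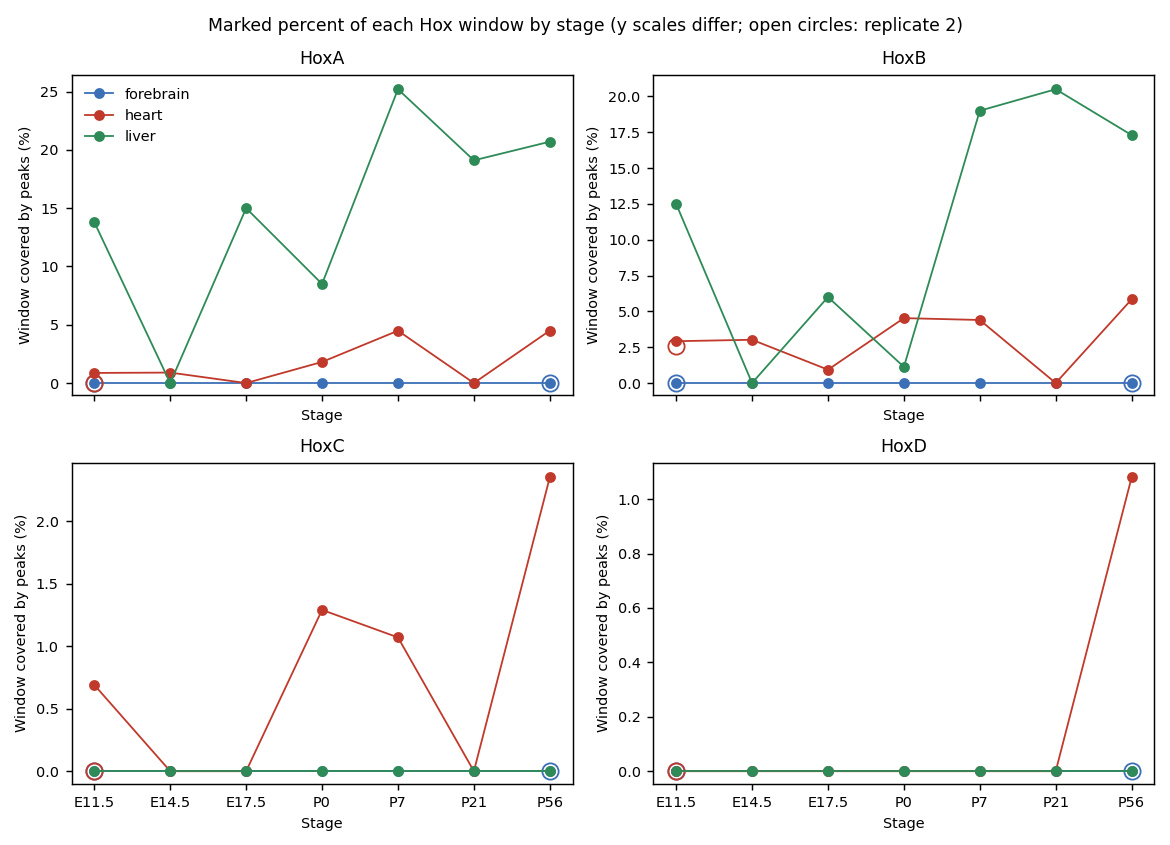
Percent of each Hox window covered by H3K27ac peaks (y axis, with a scale of its own in each panel) at the 7 stages (x axis), with replicate 1 of each tissue as filled points joined by lines and replicate 2, where there was one, as open circles. Forebrain stays at 0 throughout, liver reaches 25.2% in HoxA and 20.5% in HoxB, and HoxC and HoxD values above 0 are all of heart.

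Over the 7 stages, the mean marked percent of HoxA was 14.6 ± 8.37 in liver, 1.79 ± 1.94 in heart and 0 in forebrain (SD over stages, n = 7 lists a tissue, as for the means that follow). That of HoxB was 10.9 ± 8.56 in liver, 3.09 ± 2.06 in heart and 0 in forebrain. Heart means were 0.772 ± 0.88 in HoxC and 0.154 ± 0.407 in HoxD, and both forebrain and liver were at 0 there. Tissue labels were exchanged within stages in an exact two-sided permutation test, with Benjamini-Hochberg adjustment over the 12 cluster and tissue pairs and a threshold of 0.05. No pair passed. The lowest adjusted p was 0.0938, and the smallest p that 128 relabellings allow is 0.0156. With forebrain at 0 throughout, a p against it follows from the number of marked lists, not from the size of the difference. With 6 of 7 lists marked, that exact permutation p cannot go below 0.0312. Liver and forebrain were both at 0 in HoxC and HoxD, so those pairs could not pass.

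HoxA in liver exceeded forebrain by 14.6 percentage points (exact permutation p = 0.0312, adjusted p = 0.0938, higher at 6 of 7 stages). HoxA in heart differed from liver by -12.8 points (exact permutation p = 0.0312, adjusted p = 0.0938, lower at 6 of 7 stages). For HoxB the difference from forebrain was 10.9 points in liver and 3.09 points in heart, each with an exact permutation p of 0.0312, an adjusted p of 0.0938 and a higher value at 6 of 7 stages. HoxB in heart against liver (-7.83 points, exact permutation p = 0.0781, adjusted p = 0.156) and HoxA in heart against forebrain (1.79 points, exact permutation p = 0.0625, adjusted p = 0.15) also missed the threshold. Each pair with forebrain reuses the same 7 forebrain lists. Among the 5 stages at which heart and liver libraries shared a name series, the heart minus liver difference was -12.1 points for HoxA (exact permutation p = 0.125) and -6.75 points for HoxB (exact permutation p = 0.312), and 5 stages cannot go below 0.0625. At the 2 stages at which heart and forebrain shared one, heart exceeded forebrain by 2.68 points in HoxA and 4.38 points in HoxB, and 2 stages cannot go below an exact permutation p of 0.5.

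The peaks ranked low in many lists, so cuts by rank lowered these values. Each list orders its peaks by the authors' rank, given here as a percentile of the list with 100 for the best peak. Over all lists the Hox peaks had a median rank percentile of 25.7 in heart (6 of 29 above the middle of their list) and 36.3 in liver (15 of 46). When every list was limited to its best-ranked 7376 peaks, the length of heart P21, no HoxA peak was left and the mean HoxB value was 1.31% in liver and 0% in heart. That cut shows the low rank of the Hox peaks and cannot tell it apart from an effect of list length. When every list kept its better-ranked 50%, HoxA was at 9.1% in liver and 0% in heart, and HoxB in liver exceeded forebrain by 6.2 points. Without stage P21 the heart minus liver difference was -11.8 points in HoxA and -5.72 in HoxB, liver exceeded forebrain by 13.8 and 9.32 points, heart exceeded it by 2.09 and 3.61 points, and the lowest adjusted p of these exact permutation tests was 0.15.

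Within HoxA and HoxB the marked span lay at the low-numbered end, and the high-numbered end was free of peaks. Each window was divided into 3 segments of equal length, because mm9 gene positions were not used here; the genes can therefore be named by their order along the cluster but not tied to single peaks. In the liver, peaks covered on average 37.7% of the low-numbered segment of HoxA, 6.06% of the middle segment and 0% of the high-numbered segment. The same means for HoxB in liver were 25.5%, 7.24% and 0%. In the heart they were 4.91%, 0.473% and 0% for HoxA, and 7.76%, 1.51% and 0% for HoxB.

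The high-numbered segment was at 0 in every list of every cluster, while HoxC and HoxD had their heart peaks in the middle segment (2.32% and 0.462% on average). The low-numbered segment exceeded the high-numbered segment in 6 of 7 liver lists in both HoxA and HoxB, in 6 of 7 heart lists in HoxB and in 5 of 7 in HoxA. In HoxB the liver P0 list counts through 1 peak that crosses the segment border. That peak covered 0.561% of the low-numbered and 2.84% of the middle segment. In an exact two-sided permutation test that flips the sign of each list's difference, the p was 0.0312 (adjusted p = 0.125 over 12 tests) for HoxA in liver, HoxB in liver and HoxB in heart, and 0.0625 (adjusted p = 0.188) for HoxA in heart. With peaks trimmed to 1 kb, the exact permutation p for HoxB in liver was 0.0625 (adjusted p = 0.188). None passed. In forebrain, and in HoxC and HoxD in every tissue, the low-numbered and high-numbered segments were both at 0 throughout, so those tests could not pass. They were still counted among the 12, which raised the adjusted p of the others. The result that none passed therefore holds for this family of 12, and an adjustment without the empty tests was not run. Without stage P21 the low-numbered segments were at 35.2% in HoxA and 22.6% in HoxB in liver, and at 5.73% and 9.06% in heart. The window edges set where the segments fall, and regions beyond the outermost genes are part of the outer segments. How many listed genes each segment holds was not determined, so an empty segment need not hold all the high-numbered genes.

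**Figure D3:**
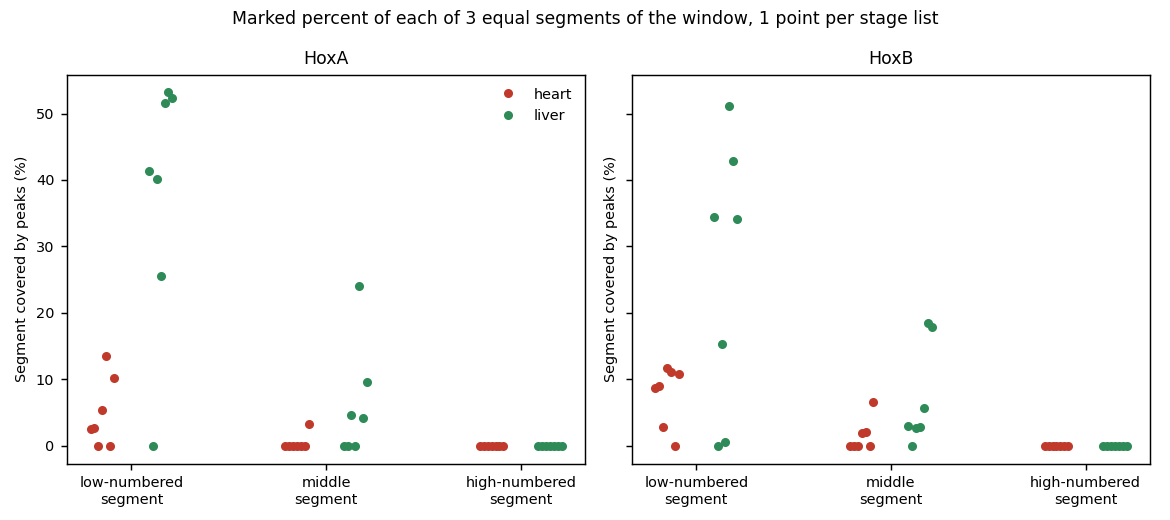
Percent of each of 3 equal segments of the HoxA and HoxB windows covered by H3K27ac peaks (y axis), with 1 point per stage list of heart (red) and liver (green), side by side within each segment. Liver points reach 53.2% in the low-numbered segment of HoxA, and all points of the high-numbered segment are at 0.

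Taken over all lists of a tissue, the marked span began at nearly the same place in heart and liver. Single lists could begin further in. In HoxB the first peak began at 36 kb in heart E17.5 and at 63 kb in liver P0, and in HoxA at 22 kb in heart P0 and liver E17.5. Measured from the low-numbered edge of the window, HoxA peaks extended from 17.3 to 82.2 kb in liver and from 18.1 to 64.2 kb in heart, and HoxB peaks from 23 to 94.9 kb in liver and from 23.1 to 67.5 kb in heart. Every base of HoxA that a heart list marked was also marked in a liver list: the heart lists together covered 10815 bp and the liver lists 39145 bp, so that the shared 10815 bp were the whole heart span and 27.6% of the liver span. In HoxB all 12072 bp of the heart span lay in the 48340 bp of the liver span (the whole of the first and 25% of the second). Of the Hox bins marked in liver, 70.2% (66 of 94) were unmarked in heart, against 41.7% of liver bins genome-wide. Of those marked in heart, 22.2% (8 of 36) were unmarked in liver, against 46.3% genome-wide, and HoxC and HoxD supplied 8 bins of heart (6 and 2), the same number.

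Peaks that overlapped over the lists were merged into 13 elements: 6 in HoxA, 4 in HoxB, 2 in HoxC and 1 in HoxD. Heart and liver shared 2 elements in HoxA and 2 in HoxB, liver alone had 4 and 2, and the elements of HoxC and HoxD were of heart alone. The widest element of HoxA, chr6:52107267-52133866 (26600 bp, 17.3 to 43.9 kb), was marked in 11 of 21 lists, 5 of heart and 6 of liver. In liver P7, P21 and P56 it was filled by 1 peak of 24057, 24805 and 23220 bp. The liver E11.5 and P0 lists broke the same stretch into 3 and 4 peaks, and heart peaks inside it were 1215 to 6286 bp wide. Liver peaks there ranked highest at P7, at percentile 72.9.

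Inside that element, liver marking was most frequent from 22 to 40.8 kb, where at least 4 and at most 6 of 7 lists had a peak (18807 bp), and from 17.9 to 21.5 kb. The lower limit of 4 lists was chosen after the values were seen. In heart a stretch of 1198 bp, from 18.3 to 19.5 kb, reached 4 lists. The heart P0 peak lay beside it, from 22 to 24.6 kb. Further along HoxA, the element chr6:52152121-52154974 (62.1 to 65 kb) was marked in heart P56, liver P7 and liver P56. It was the heart element nearest the high-numbered end, and in liver it had the best mean rank percentile of the cluster (55.1 over 2 lists). The liver element nearest that end, chr6:52170640-52172232 (80.6 to 82.2 kb), was marked at P7.

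In HoxB the widest element, chr11:96192744-96216994 (24251 bp, 23 to 47.3 kb), was marked in 11 of 21 lists, 6 of heart and 5 of liver. Mean rank percentiles there were 48.2 in heart and 56.9 in liver. The liver P7 list had a peak of 17397 bp in it, which ranked at percentile 80.6, the best of the 75 Hox peaks. Heart lists marked 2 short stretches of it again and again: 35.8 to 37.7 kb in up to 6 of 7 lists, and 23.3 to 27.3 kb in up to 5. Liver lists marked those 2 stretches in up to 5 lists each, and 3 further stretches along the cluster, at 44.8 to 47.1, 52.8 to 55.7 and 62.9 to 65.1 kb, in up to 4 or 5.

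The second HoxB element by number of lists, chr11:96169025-96178398 (61.6 to 71 kb), was marked in 8 lists, heart P0, P7 and P56 and liver E11.5, E17.5, P0, P21 and P56. It held the single HoxB peak of liver P0. The element nearest the high-numbered end, chr11:96145098-96149182 (90.8 to 94.9 kb), was marked in liver P7, P21 and P56, with rank percentiles of 39.4, 29.8 and 30.6. No prenatal list and no heart list had a peak there.

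**Figure D4:**
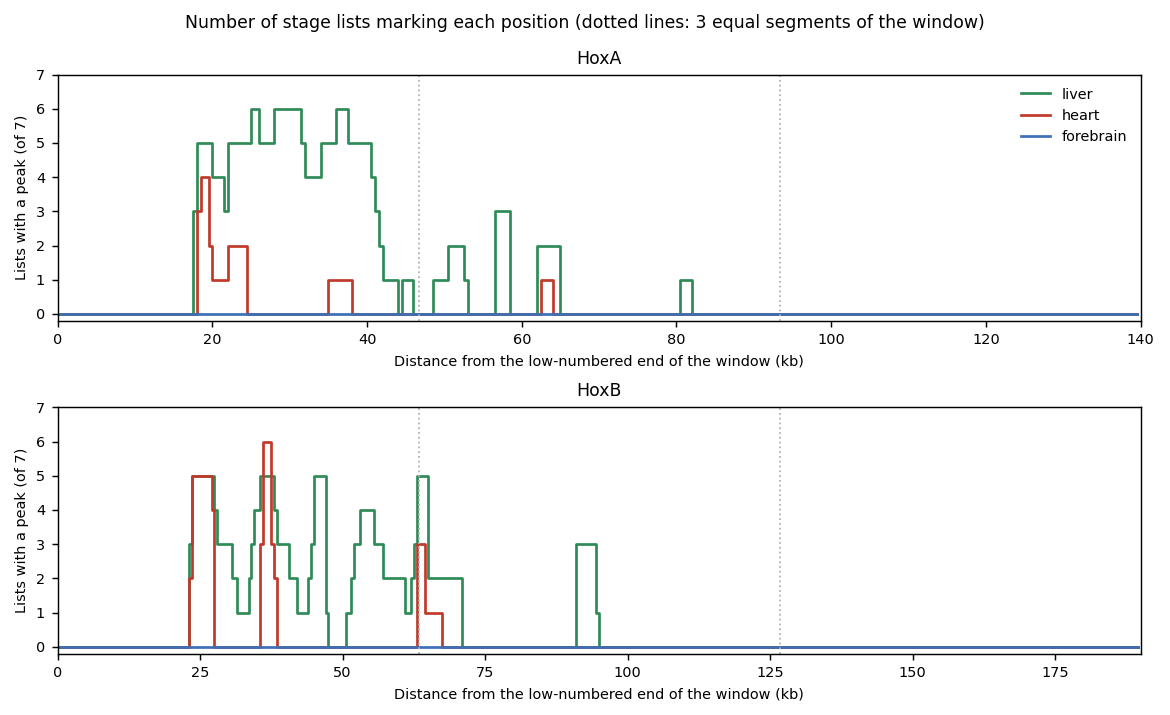
Number of the 7 stage lists of each tissue (y axis) that have an H3K27ac peak at each position of the HoxA and HoxB windows, against the distance in kb from the low-numbered end (x axis); dotted lines divide the windows into 3 equal segments. Liver reaches 6 lists in HoxA and heart reaches 6 in HoxB, inside the stretch from 35.8 to 37.7 kb, and no line leaves 0 beyond 82.2 kb in HoxA or 94.9 kb in HoxB.

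The HoxC elements were both of heart. The wider, chr15:102830694-102833028 (2335 bp, 47 to 49.3 kb), was marked at E11.5 in replicate 1, at P0, at P7 and at P56. Its rank percentile was 67.7 at P0, 31.9 at P7, 7.33 at P56 and 3.33 at E11.5, so the peak was near the end of 2 of its 4 lists. The other, chr15:102807409-102808463 (71.5 to 72.6 kb), was found at P56 with a rank percentile of 0.695, among the last peaks of that list. The single HoxD peak, chr2:74549456-74550855 (1400 bp, 69.1 to 70.5 kb), had a rank percentile of 21.

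Liver Hox peaks were also wider than those of heart by their median. The median Hox peak was 3770 bp wide in liver (46 peaks) and 1925 bp in heart (27 peaks of 7 lists), and the median of all peaks was 2883 bp in liver and 2539 bp in heart. More than 6 kb was reached by 15 of 46 liver Hox peaks and 1 of 29 heart Hox peaks. The same share over all liver and all heart peaks was not computed, so these counts have no background beside them. Peaks of 1 list share their library, so these are descriptions without a test.

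**Figure D5:**
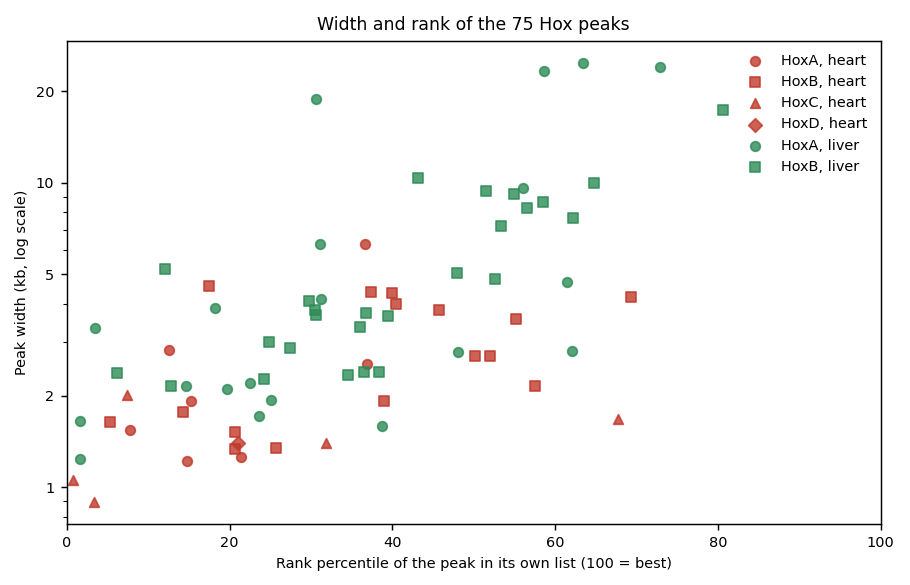
Width in kb (y axis, log scale) of each of the 75 Hox peaks against its rank percentile in its own list (x axis, 100 for the best), by cluster (symbol) and tissue (red heart, green liver). The widest peaks, up to 24805 bp, are of HoxA in liver, and the best rank percentile, 80.6, is of HoxB in liver.

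As a share of the window, HoxA and HoxB had higher postnatal than prenatal means in both heart and liver. However, no stage difference passed the test. Averaged over tissues, the differences were smaller or absent at equal list lengths. They stayed near the main values when each list kept only its better-ranked part. In liver the mean of HoxA was 9.57% over the 3 prenatal and 18.4% over the 4 postnatal stages, and that of HoxB was 6.16% before birth and 8.33 points higher after it. In heart HoxA was at 0.589% and 2.7%, HoxB at 2.29% and 3.69%, and HoxC at 0.23% and 1.18%. The ranges overlapped: liver P0 was below liver E11.5 and E17.5 in both HoxA and HoxB, and heart P21 was at 0.

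Averaged over the 3 tissues, the postnatal minus prenatal difference was 3.64 percentage points for HoxA (exact permutation p = 0.0971, adjusted p = 0.267), with 2 tissues higher, none lower and forebrain at 0 throughout. For HoxB it was 3.24 points (exact permutation p = 0.152, adjusted p = 0.267), also higher in 2 tissues. HoxC (0.316 points) and HoxD (0.0897 points) did not pass either, with adjusted p of 0.267 and 1 in the same exact permutation test. Stage labels were exchanged within tissues in these two-sided tests. Without stage P21 the differences were 3.86 points for HoxA and 2.99 points for HoxB. Without stage E14.5, whose liver list had no Hox peak, they were 2.09 points for HoxA (exact permutation p = 0.284) and 2.34 points for HoxB, and the stage difference of HoxA in liver minus forebrain was 4.02 points in place of 8.8. At the equal list length of 7376 peaks the difference over tissues was 0 for HoxA and 0.763 points for HoxB. No HoxA peak was left at that length, so its 0 cannot speak for stage. At 12474 peaks the difference was 2.14 and 0.705 points. When each list kept only its better-ranked part, it was 3.97 points for HoxA and 3.21 for HoxB. The stage difference in liver minus forebrain was then 11.9 points in HoxA and 9.37 in HoxB, against 8.8 and 8.33 in the main setting. That in heart minus forebrain fell to 0 and 0.256 points, from 2.11 and 1.4.

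The share of the whole genome covered by peaks moved with stage as well. In liver it was 1.88 to 4.14% in the prenatal and 2.57 to 4.95% in the postnatal lists, and in heart 2.88 to 3.91% and 0.867 to 6.14%. On the log2 scale of window over genome percent, the postnatal minus prenatal difference was 1.04 for HoxA (exact permutation p = 0.189) and 0.315 for HoxB (exact permutation p = 0.699). Both values are means over the 3 tissues. An empty window, as in every forebrain list, takes a value on this scale that follows from the genome percent alone. The means therefore do not give the difference in heart and liver alone. The difference between tissues in the stage difference of the marked percent was tested too. Liver minus heart was not called in HoxA or HoxB (heart minus liver -6.69 and -6.93 points, exact permutation p = 0.314 and 0.343, adjusted p = 0.588 each), and none of the 12 such tests passed.

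Among Hox bins marked in liver, 37.2% (35 of 94) were marked in postnatal lists and in no prenatal one, against 40.8% of liver bins genome-wide. Among those marked in heart it was 66.7% (24 of 36) against 40.3%. The liver share was thus near the background. Stages differed in how much of the span they had in common. In liver HoxA, 87.6% of the bases marked at E11.5 were marked again at P7, as were all of those marked at E17.5. Those shared bases were 47.8% and 59.4% of the P7 span. In heart HoxB, all bases marked at E11.5 were marked at P56, where they were 50% of the span. In liver HoxB, the P0 and P7 peaks shared no base, 9.09% of the bases marked at E11.5 were marked at P0 and 44% at E17.5. The P0 span there was 1 peak of 2154 bp with a rank percentile of 12.8, from the library with the fewest reads. In heart HoxA, the P0 peak shared none with E11.5, E14.5 or P56. Overlaps between the same lists were not computed genome-wide, so these shares describe the windows without a background.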

How the data were processed

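H3K27ac and input libraries of forebrain, heart and liver were grouped by the sample labels. Per the submitters' processing notes, BWA, MACS 1.4 and the mm9 build were used; their roles and other settings were not given in the sources used here. Of each library the authors deposited 1 peak list with positions and a rank, and of the series a summary table with read counts and peak counts per library. Track names of the H3K27ac lists include withInput and pe05, per the file headers. Those headers and the summary table write P0 as P1 and P21 as P20; the names of the labels were used, and which is right is not known.

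Windows were read from the stated rule, and the orientation of each cluster and the gene order from RefSeq. The members and lists were chosen with earlier results of these data known. Tests used 21 lists, 1 per tissue and stage (replicate 1 where there were 2), and were exact two-sided permutation tests on the percent of a window covered by peaks, with Benjamini-Hochberg adjustment within each of 4 families and a threshold of 0.05. The permutation code was tested on simulated data. Peaks overlapping by 1 base or more over 24 lists were merged into elements. In each window the rule named the element in most lists, the widest, the one with the best mean rank in each tissue, any in 2 or more forebrain lists (there were none) and the one nearest the high-numbered end in each tissue. Bins were 1 kb and counted as marked from 1 base. Tiles, flanking stretches, the promoter motif and other elements were chosen after the values were seen. Peak lists hold presence only, so a position without a peak is one not called at that library's depth.

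Alternatives were equal list lengths, the better-ranked 50%, peaks trimmed to 1 kb, log2 of window over genome percent (pseudocount 0.1), windows widened by 10 kb, removal of peaks overlapping the matched input list, leaving out stages or replicates, and a replicate block. No mm9 gene positions were used, no coordinates were converted, and the planned check of tissue marker genes was not run. Python 3.11.15, numpy 2.4.6 and matplotlib 3.10.9 were used.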

Additional observations from a re-analysis of the deposited data

Results flagged for a closer look

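The HoxD value of heart P56, 1.08% of the window, stood apart from the other 6 heart stages, which were at 0. Of 6 groups of 7 lists checked in this way, 1 held such a value. With the other 6 values all at 0, any value above 0 would have stood apart whatever its size, so the usual chance rate of about 1 in 20 does not hold here. It rests on 1 peak with a rank percentile of 21, and its cause was not tested.

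Input lists, which the comparisons above do not use, held 3 peaks in HoxA and 4 in HoxB, all in the heart P21 input list, and the other 23 input lists held none in any Hox window. All 7 overlapped an H3K27ac element of heart or liver. The HoxB peaks lay at 23.4 to 28, 34.9 to 38.3, 44.5 to 47.1 and 62.6 to 65.8 kb from the low-numbered end, and the HoxA peaks at 34.3 to 40.6, 51.9 to 53 and 62.3 to 64.7 kb. That list goes against its label as an input, with 23762 peaks, and the heart P21 H3K27ac list itself had 0 Hox peaks.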

How the results depend on the processing

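Under the alternatives run, no test passed the threshold, as in the main results. Of 40 tests, 7 had an unadjusted exact permutation p of at most 0.05 in the main setting. That number was 9 with log2 of window over genome percent, 7 without heart E11.5 replicate 1, 6 with peaks trimmed to 1 kb and 6 with windows widened by 10 kb. On the log2 scale a stage with both windows empty still gives a difference, set by the genome percents. The 9 therefore cannot be read as more differences in marking than the 7. It was 5 without stage E14.5, 2 without stage P21, and 0 without stage P56, with equal list lengths, with equal lengths of 12474 peaks set without heart P21, and with the better-ranked 50% of each list. Removing peaks that overlap matched input peaks could change nothing, since the one input list with Hox peaks is that of heart P21, and leaving out a forebrain replicate exchanged lists that were all at 0; these settings say nothing about stability. The settings without E14.5 or P56 and the length set without heart P21 were chosen after seeing the data.

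Equal list length took the liver minus forebrain difference of HoxA from 14.6 to 0 points and that of HoxB from 10.9 to 1.31 points; with 12474 peaks they were 5.97 and 4.29 points. Peaks trimmed to 1 kb gave 2.04 and 1.95 points. Without heart E11.5 replicate 1, heart minus forebrain was 1.67 points in HoxA and 3.04 points in HoxB. HoxB in heart against liver ranged in adjusted p from 0.15 to 1.

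Of the values that turned in sign, HoxD postnatal minus prenatal was -0.0869 under log2 of window over genome percent, HoxD heart minus forebrain was -0.0694 points in widened windows, the stage difference of HoxD in heart minus forebrain was -0.121 points there, and that of HoxB was -0.738 points with 12474 peaks, against 1.4 in the main setting. The widened HoxD window takes in forebrain peaks beyond its edge. On the log2 scale an empty window takes a value set by the pseudocount and the genome percent alone. HoxD was empty in every list of the main tests but heart P56. The cause of the HoxB change was not tested.

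With both E11.5 replicates of heart and forebrain paired by number as a replicate block, the heart minus forebrain difference was 1.57 points in HoxA (exact permutation p = 0.0625), 3.03 in HoxB (exact permutation p = 0.0156, adjusted p = 0.0938), 0.675 in HoxC and 0.135 in HoxD, and no call changed. The numbers name samples and the labels do not say that they pair them.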
